A study of Mus musculus with 34 samples.

Results

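The genes described here are 7 of the 21938 protein-coding genes whose promoters could be read from the tracks. They are the oxidase genes Duox1, Duox2 and Nox1, the nitric oxide synthase gene Nos2, the oxidase maturation factors Duoxa1 and Duoxa2, and Oit1. They were chosen from the APC against WT contrast itself, in which Duox2, Oit1 and Duoxa2 led all promoters by the size of the difference. Their locus partners and the related genes Nox1 and Nos2 were taken with them. All differences between the groups at these 7 genes are therefore a description of the 4 libraries and carry no test.

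H3K4me3, a histone mark found at the 5' ends of active genes, was mapped by CUT&RUN, in which an antibody tethers a nuclease to the marked nucleosomes and the released fragments are sequenced. The WT group was 2 libraries from wild-type C57BL/6J mice and the APC group was 2 libraries from C57BL/6J mice carrying ApcMin/+, a germline mutation of 1 copy of Apc that is present in every cell and leads to intestinal tumours; the labels give an age of 5 weeks for both, and the series' design text a range up to 6 weeks. Villus cells were scraped from small intestine that still looked normal, so each library is a mixture of the cells on the villi. Of the 34 samples of the series these 4 libraries are used here, and the remaining samples were not analysed.

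Dual oxidases are membrane enzymes that release hydrogen peroxide at the apical surface of epithelia, and each needs its own maturation factor, encoded by the gene beside it, to leave the endoplasmic reticulum. In the gut DUOX2 with DUOXA2 is the main pair and its genes are known to be switched on by contact with microbes and by cytokines. NOX1 makes superoxide mainly in colonic epithelium, NOS2 is the inducible nitric oxide synthase, and Oit1 encodes a secreted protein of the FAM3 family made by gut epithelium.

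The 4 Duox locus genes lie on chromosome 2 as a pair of head-to-head pairs (mm10, GENCODE M21 annotation). Duox2, on the minus strand, and Duoxa2, on the plus strand, start 451 bp apart, at positions 122298449 and 122298900. Duoxa1, on the minus strand, and Duox1, on the plus strand, start 1942 bp apart, at 122313730 and 122315672. The 5' ends of Duox2 and Duoxa1 are 15281 bp apart, and the 3' ends of Duoxa2 and Duoxa1 overlap by 695 bp. Oit1 starts at position 8378754 of chromosome 14 on the minus strand, Nos2 at 78920787 of chromosome 11 on the plus strand and Nox1 at 134221956 of chromosome X on the minus strand.

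The promoter sequences of the 3 genes with the large differences, and of the other head-to-head pair of the same locus for contrast, are given from RefSeq on GRCm38.p6, each 250 bases before to 50 bases after the RefSeq 5' end, in the direction of the gene. CpG dinucleotides, the sites that can be methylated and that are dense at many H3K4me3-marked promoters, are in capitals.
Duox2 (chr2:122298178-122298477, minus strand): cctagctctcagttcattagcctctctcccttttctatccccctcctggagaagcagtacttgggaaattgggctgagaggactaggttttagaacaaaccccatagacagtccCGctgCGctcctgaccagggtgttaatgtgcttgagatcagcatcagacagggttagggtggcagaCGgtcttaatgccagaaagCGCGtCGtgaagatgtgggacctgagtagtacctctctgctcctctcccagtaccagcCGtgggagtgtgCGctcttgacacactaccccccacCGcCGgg
Duoxa2 (chr2:122298650-122298949, plus strand): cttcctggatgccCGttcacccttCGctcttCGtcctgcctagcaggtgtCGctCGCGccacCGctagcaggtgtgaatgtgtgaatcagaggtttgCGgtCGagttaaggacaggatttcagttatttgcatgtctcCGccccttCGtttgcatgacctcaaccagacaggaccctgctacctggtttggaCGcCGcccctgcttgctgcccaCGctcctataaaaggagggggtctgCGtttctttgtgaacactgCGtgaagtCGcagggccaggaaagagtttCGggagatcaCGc
Oit1 (chr14:8378714-8379013, minus strand): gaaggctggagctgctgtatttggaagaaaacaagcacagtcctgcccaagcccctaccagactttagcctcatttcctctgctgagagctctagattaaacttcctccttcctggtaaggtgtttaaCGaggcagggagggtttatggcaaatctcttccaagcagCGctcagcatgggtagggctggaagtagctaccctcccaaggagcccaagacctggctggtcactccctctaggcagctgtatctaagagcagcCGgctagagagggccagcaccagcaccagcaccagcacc
Duoxa1 (chr2:122313681-122313980, minus strand): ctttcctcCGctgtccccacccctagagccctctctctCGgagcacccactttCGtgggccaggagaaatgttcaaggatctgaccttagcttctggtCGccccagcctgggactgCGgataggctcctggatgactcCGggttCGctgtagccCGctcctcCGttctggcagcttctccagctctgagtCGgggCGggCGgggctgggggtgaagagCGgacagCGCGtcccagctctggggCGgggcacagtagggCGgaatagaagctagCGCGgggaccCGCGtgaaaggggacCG
Duox1 (chr2:122315422-122315721, plus strand): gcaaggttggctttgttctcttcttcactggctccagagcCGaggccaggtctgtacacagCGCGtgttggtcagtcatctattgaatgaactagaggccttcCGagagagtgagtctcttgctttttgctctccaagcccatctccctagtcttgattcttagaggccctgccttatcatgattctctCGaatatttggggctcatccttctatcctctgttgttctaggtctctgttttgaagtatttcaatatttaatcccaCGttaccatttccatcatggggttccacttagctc

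Of the 7 genes, 6 had a RefSeq promoter entry. The CpG content of the 3 promoters with the large differences varied widely. The ratio of observed to expected CpG was 0.789 at Duoxa2 (19 CpGs), above 78.2% of the 32851 promoters in the RefSeq table, and 0.437 at Duox2 (10 CpGs), above 53.9%. At Oit1 it was 0.133, with 3 CpGs, above 18.4% of promoters. The promoters of the other pair stood at 0.682 for Duoxa1 and 0.372 for Duox1, and that of Nox1 at 0.192. The median of the table was 0.384. The Nox1 sequence lies at a 5' end 110102 bp into the gene, outside the window around its annotated gene 5' end. For Duox2 and Oit1 the RefSeq 5' ends, 122298227 and 8378763, lie inside the signal windows but differ from the annotated 122298449 and 8378754.

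These sequences were searched for 5 motifs on both strands. The TATA box letters TATAAA were found at Duoxa2 alone among the 6, beginning 30 bases before the 5' end, and occur in 13.6% of all promoters of this length. The AP-1 letters TGANTCA were also found at Duoxa2 alone, as TGAATCA beginning 168 bases before the 5' end, and occur in 7.81%. The TCF/LEF letters ATCAAAG (3.73% of all promoters), the STAT letters TTCNNNGAA (8.30%) and the NF-kappaB motif (0.411%) were in none of the 6 windows. A match is a run of letters and not a measured binding site, and a window without a match says nothing of the factor.

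The libraries differed in depth and in the share of signal inside marked regions, and both bear on every value below. They held 1430000 (WT replicate 1), 4790000 (WT replicate 2), 3700000 (APC replicate 1) and 5470000 tags (APC replicate 2), each scaled to 10000000, so that a lone fragment stood at a signal of 4.47, 1.34, 1.58 and 1.17 over most of its length. APC replicate 1 stood apart, with 43.2% of its signal in the 55650 enriched regions, which are runs of 100 bp bins at 5 or more times the genome mean of the 4 libraries, against 11.9% to 22.5% in the others, and it was the highest library at 98.6% of the 9930 promoters that passed a minimum mean signal of 2 and were tested. The median log2 difference of APC against WT over these promoters was 0.85, that of APC replicate 1 alone was 1.58 and that of APC replicate 2 alone was 0.13. Enrichment and genotype cannot be told apart in APC replicate 1, so the differences of Duox2, Duoxa2 and Oit1 are also given for APC replicate 2 alone and after each library was centred on its median tested promoter. Signal here is the mean coverage per base over the 2001 bp centred on the annotated 5' end, so levels of different genes are on one scale per length.

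Duox2 carried little H3K4me3 in either WT library and a strong mark in both APC libraries. Its level was 2.65 in WT replicate 1 and 1.12 in WT replicate 2, from 8 and 11 fragments. It was 39.6 in APC replicate 1 and 6.98 in APC replicate 2, from 294 and 76 fragments. Both APC libraries thus lay above both WT libraries, and their 95% Poisson intervals, which cover counting error only, ran from 35.3 to 44.5 and from 5.47 to 8.69, against 1.21 to 5.51 and 0.574 to 2.06 in WT. The lower bound in APC replicate 2 therefore lay just under the upper bound in WT replicate 1.

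Read within each library, Duox2 moved from the middle of the promoters to near the top. It was above 64.2% and 52.4% of the 21938 promoters in the WT libraries and above 99.7% and 95.7% in the APC libraries, where it ranked 57 and 941. Its level was 0.584 and 0.366 times the median tested promoter in WT and 3.01 and 1.67 times that median in APC. The log2 difference of the group means was 2.70 on the log2(signal + 1) scale, 1.84 after centring, and 1.52 for APC replicate 2 alone against WT. The largest part of the size came from APC replicate 1, whose level was 5.68 times that of APC replicate 2; at the median tested promoter this ratio was 3.17.

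Duoxa2, which encodes the maturation factor for DUOX2, gave almost the same picture, and 1550 of the 2001 bases of its window are shared with that of Duox2, so its values are not a second measurement. Its level was 2.29 and 1.15 in WT, from 7 and 11 fragments, and 37.1 and 5.22 in APC, from 275 and 57 fragments. The groups did not overlap. The log2 difference was 2.53, or 1.68 after centring and 1.23 for APC replicate 2 alone.

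**Figure D1:**
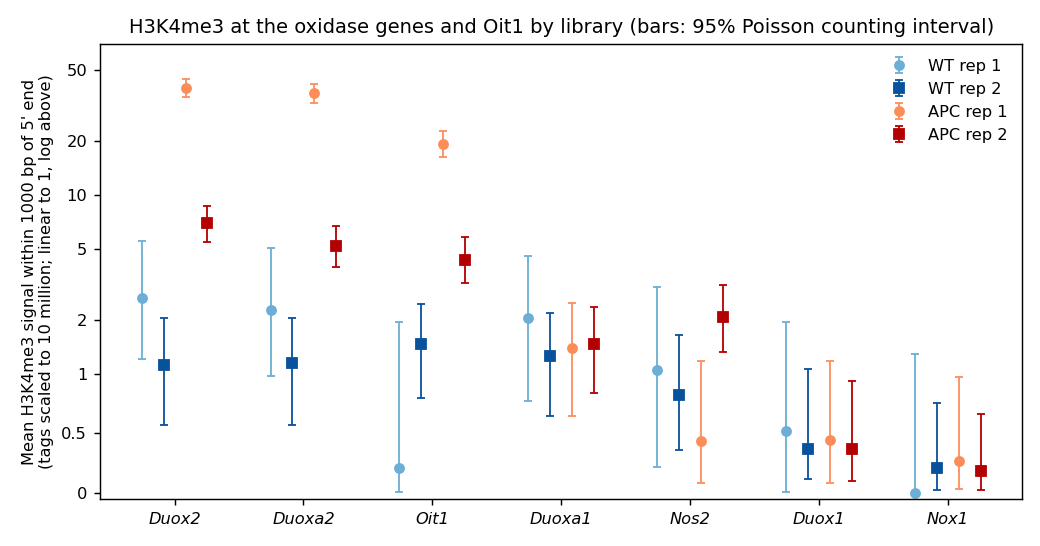
Mean H3K4me3 signal within 1000 bp of the 5' end of each gene, on an axis that is linear to 1 and logarithmic above. Points are single libraries and bars are 95% Poisson intervals of the fragment count. Duox2, Duoxa2 and Oit1 have both APC libraries above both WT libraries, with APC replicate 1 highest, and the other 4 genes stay at or under 2.07 in every library.

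Oit1 likewise had both APC libraries above both WT libraries, at a lower level. Its signal was 0.210 in WT replicate 1, where a single fragment touched the window, and 1.46 in WT replicate 2, from 14 fragments. It was 19.3 in APC replicate 1 and 4.35 in APC replicate 2, from 143 and 48 fragments. The 4 values did not overlap between the groups, and the difference was 2.60 on the log2 scale, 1.74 after centring and 1.63 for APC replicate 2 alone. In contrast to Duox2, Oit1 reached only 1.47 and 1.04 times the median tested promoter in the APC libraries, where it stood above 88.9% and 79.2% of all promoters. In the WT libraries it stood above 17.8% and 57.4%.

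At the partner genes Duoxa1 and Duox1, 15 kb away on the same stretch of chromosome, the mark was low in all 4 libraries. Duoxa1 had a level of 2.05 and 1.25 in WT and 1.39 and 1.46 in APC, from 6 to 16 fragments. Duox1 had 0.523 and 0.368 in WT and 0.443 and 0.365 in APC, from 1 to 4 fragments. The groups overlapped at both genes, with log2 differences of -0.11 and -0.04. After centring these were -0.97 and -0.89, and for APC replicate 2 alone, uncentred, -0.09 and -0.08. Centring takes off the shift of the median tested promoter, and the level away from genes and enriched regions, at 0.280, 0.323, 0.198 and 0.299 in WT replicates 1 and 2 and APC replicates 1 and 2, did not show that shift. In the WT libraries Duox2 and Duoxa1 stood at about the same level, with a Duox2 to Duoxa1 ratio of 1.29 and 0.895 within the library. In the APC libraries this ratio was 28.6 and 4.78. The ratio is taken within a library and so does not move with its scaling to a common tag number, although it does move with enrichment over background.

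Nox1 was at 0 to 1.36 times the background level and Nos2 at 2.22 to 6.93 times. Nox1 had no fragment in WT replicate 1 and 2 fragments in each of the others, for levels of 0, 0.209, 0.270 and 0.182; a count of 0 allows up to 3 fragments one-sided, and its two-sided Poisson interval, as plotted, reaches 3.69. Of the 5 annotated Nox1 5' ends, 4 lie far into the gene. At the one 110102 bp downstream the level was 0 to 0.529, and at the one 84245 bp downstream it was 0.697, 0.230, 0.132 and 0.424. Nos2 gave a split within the APC group. Its level was 1.05 and 0.824 in WT, 0.439 in APC replicate 1 and 2.07 in APC replicate 2, from 3, 8, 3 and 23 fragments. APC replicate 2 was thus the highest library at Nos2, with its highest 100 bp bin, 9.06, directly before the 5' end, whereas the better enriched APC replicate 1 was the lowest.

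Of the 7 genes, 3 passed the minimum mean signal of 2, and these 3 had both APC libraries above both WT libraries; Duoxa1, Duox1, Nox1 and Nos2 did not pass, and their groups overlapped. They passed through the APC libraries, where they were high. Both APC libraries were above both WT libraries at 38.5% of the 9930 tested promoters and at 26% of all 21938, and in the opposite direction at 0.161% of those tested. After centring the shares were 13.1% for higher and 14.3% for lower. As the members were chosen on this contrast, nothing is read from their count. By limma, the percentage of tested promoters with an adjusted p below 0.05 was 0, with 132 promoters below 0.05 before adjustment, so no single promoter of the genome passed in this design of 2 libraries against 2.

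By the size of the group difference Duox2 ranked 1, Oit1 2 and Duoxa2 3 among the tested promoters. By APC replicate 2 alone the order was Oit1 1, Duox2 2 and Duoxa2 16. Further genes were ranked only if both APC libraries lay above both WT libraries and the average of the 4 was 5 or more. In that narrower set the next gene by the group difference was Pla2g4c, a phospholipase gene, at 2.41. Tested promoters outside that set may lie between. At Pla2g4c the levels were 0.444 and 0.249 in WT, 31.2 in APC replicate 1 and 0.586 in APC replicate 2, so its difference rested on a single library. Adamts15 (2.24) and Car4 (2.21) followed in the same set. In APC replicate 2 they stood at 3.78 and 3.20, below that library's median tested promoter of 4.18.

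**Figure D2:**
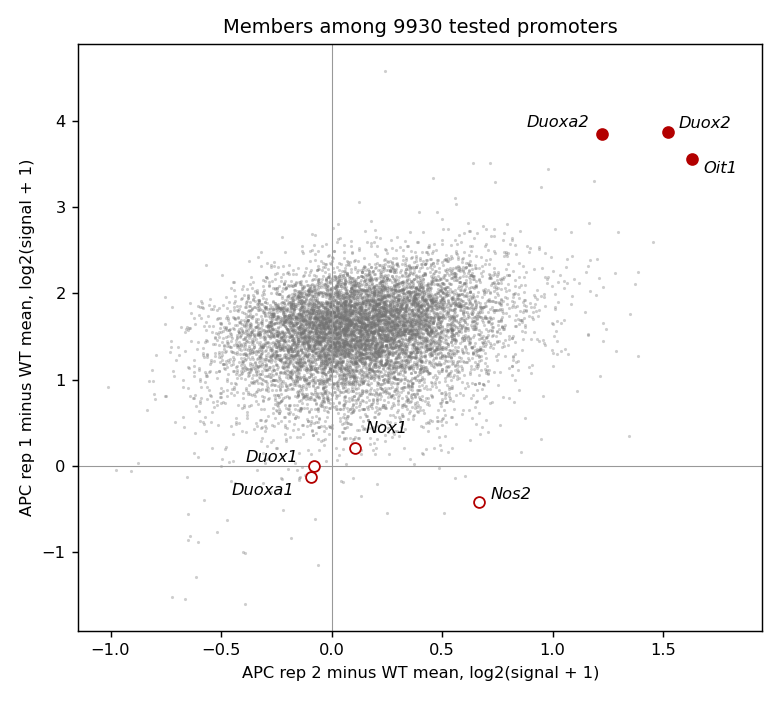
Log2(signal + 1) of each APC library minus the mean of the WT libraries, for APC replicate 2 (horizontal) and APC replicate 1 (vertical). Grey points are the 9930 tested promoters, filled red points are members that were tested and open red points are members below the minimum signal. Duox2, Duoxa2 and Oit1 lie at 1.52, 1.23 and 1.63 on the horizontal axis and at 3.87, 3.84 and 3.56 on the vertical axis.

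By mean level, the WT order was Duox2 1.88 ± 1.08 (SD, n = 2), Duoxa2 1.72 ± 0.806, Duoxa1 1.65 ± 0.563, Nos2 0.935 ± 0.157, Oit1 0.836 ± 0.885, Duox1 0.445 ± 0.110 and Nox1 0.104 ± 0.148. Duox2, Duoxa2 and Duoxa1 overlapped in their values, as did Nos2 with Oit1 and Oit1 with Duox1. Oit1, at 0.210 and 1.46, also overlapped with Duox2, Duoxa2 and Duoxa1. The values of Duoxa1 all lay above those of Nos2, and those of Duox1 above those of Nox1. In APC, Duox2 (23.3 ± 23.1), Duoxa2 (21.2 ± 22.6) and Oit1 (11.8 ± 10.6) overlapped with each other across the 2 libraries and lay above Duoxa1 (1.42 ± 0.0525). Within each APC library the order was the same. Duox2 stood at 39.6 and 6.98, Duoxa2 at 37.1 and 5.22 and Oit1 at 19.3 and 4.35. Oit1 stood below Duoxa1 in the WT means, though above it in WT replicate 2 (1.46 against 1.25). In both APC libraries Oit1 stood above Duoxa1. Nox1 was the lowest in both orders.

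Along the Duox locus the mark of the APC libraries lay over the Duox2 and Duoxa2 5' ends and across Duoxa2. The enriched region called on the mean of the libraries ran from 122295101 to 122302900 of chromosome 2, a length of 7800 bp that exceeded 99.86% of the enriched regions, whose median length was 600 bp. Its mean level was 0.865 and 0.937 in WT and 26.1 and 3.67 in APC, from 10, 35, 752 and 157 fragments. APC replicate 1 thus made up most of the mean on which the region was called, and the length was not measured in each library alone. The region extended 4451 bp upstream of the Duox2 5' end, across the whole of Duoxa2, and 3348 bp into Duox2. The region over the Duoxa1 5' end was 1000 bp long.

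Within the locus of 78726 bp the shared Duox2 and Duoxa2 promoter held 8.64% and 5.26% of the signal in WT and 32.4% and 17.4% in APC. The shared Duoxa1 and Duox1 promoter held 7.56% and 6.19% in WT and 1.27% and 4.35% in APC. The level of this second promoter pair was 1.24 and 0.795 in WT and 0.886 and 0.927 in APC. The stretch between the promoters, which holds Duoxa2 and Duoxa1, held 9.72% and 17.3% in WT and 31.8% and 21.7% in APC.

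The highest point was not the same in both APC libraries. In APC replicate 1 the highest 100 bp bin, with a level of 74.3, was centred 0.101 kb from the Duox2 5' end on the Duoxa2 side, between the 5' ends of the pair. In APC replicate 2 it was 17.3, at 3.20 kb, inside the Duoxa2 gene. A 700 bp stretch around this second point, from 122301249 to 122301948 and chosen after its values were seen, had levels of 0 and 3.37 in WT and 21.6 and 8.51 in APC, from 0, 11, 56 and 33 fragments. WT replicate 2 thus carried a weak mark there, above its level of 1.12 at Duox2. Between the 5' ends of Duox2 and Duoxa2 the levels were 1.55, 1.69, 43.3 and 8.01.

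**Figure D3:**
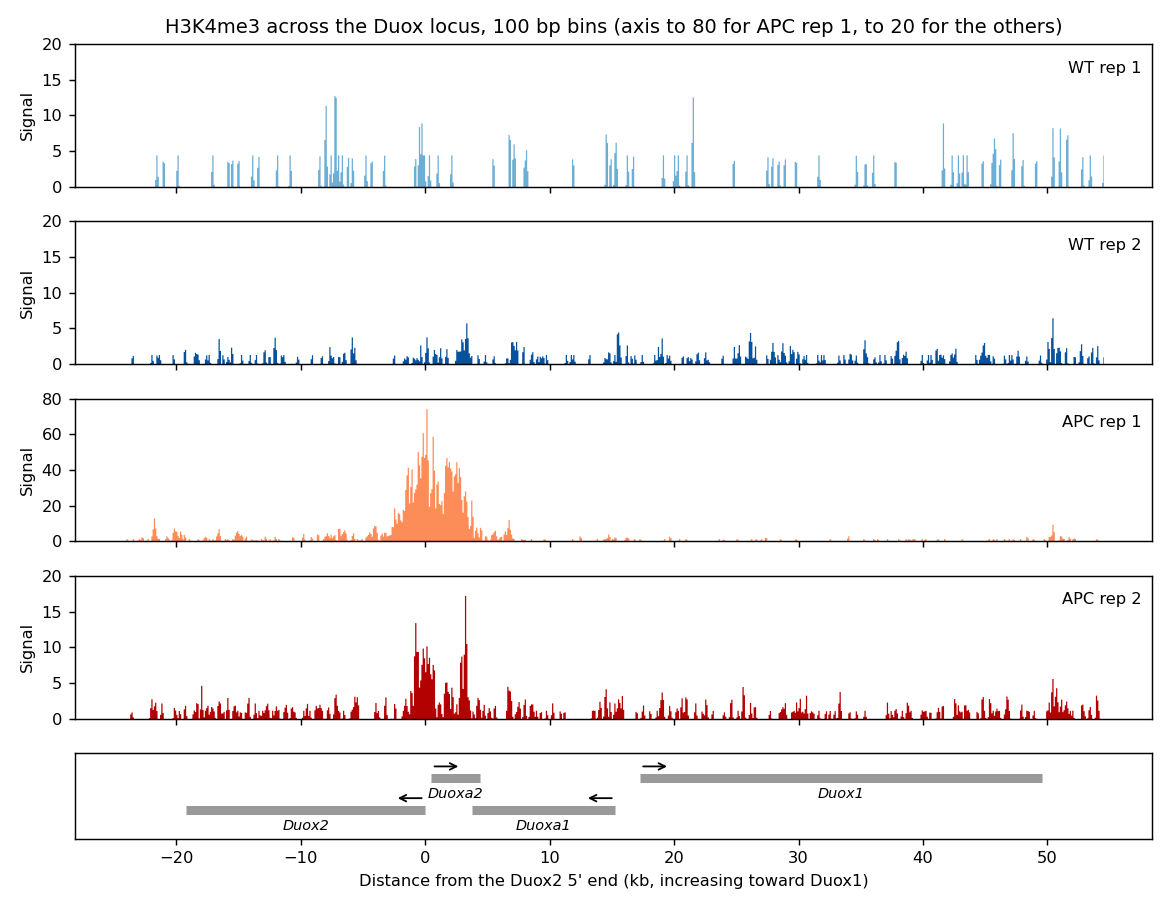
H3K4me3 signal in 100 bp bins across the Duox locus, with distance from the Duox2 5' end in kb on the horizontal axis and each library in its own panel; the vertical axis runs to 80 for APC replicate 1 and to 20 for the others. Grey bars are genes and arrows point from the 5' end in the direction of transcription. A block of signal covers the Duox2 and Duoxa2 5' ends in both APC libraries, and the Duoxa1 and Duox1 5' ends stay below 8 in every library.

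At Oit1 the mark was spread into the gene. The enriched region ran from 8374901 to 8379000 of chromosome 14, 4100 bp and longer than 98.28% of regions, with 246 bp upstream and 3853 bp downstream of the 5' end. It too was called on a mean made up mostly by APC replicate 1, with levels of 1.36 and 1.83 in WT and 20.2 and 4.66 in APC. Over the first 4000 bp of the gene the level was 1.40 and 1.65 in WT and 19.6 and 4.46 in APC, from 8, 32, 290 and 98 fragments. Over the 4000 bp upstream it was 0 and 0.645 in WT and 1.75 and 1.06 in APC. In WT replicate 1 only 7.45% of the signal within 5000 bp lay in the promoter window, and the rest was further into the gene. In WT replicate 2 the gene body also carried a weak mark. Of the signal within 5000 bp of the 5' end, the downstream side held 100% in WT replicate 1 (8 fragments), 72.2% in WT replicate 2, 91.2% in APC replicate 1 and 79.4% in APC replicate 2. At Duox2, where the neighbour starts on the other side, it held 75% in WT replicate 1 (12 fragments), 20.4% in WT replicate 2, 40.4% in APC replicate 1 and 38.5% in APC replicate 2.

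**Figure D4:**
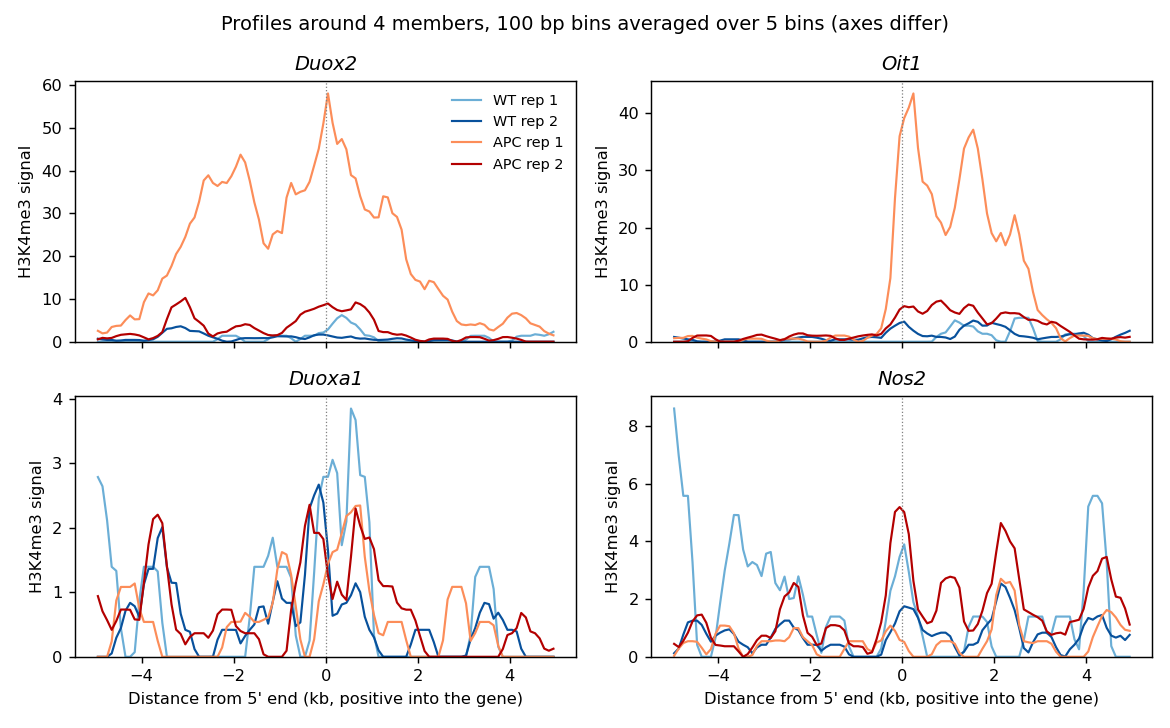
H3K4me3 signal in 100 bp bins, averaged over 5 neighbouring bins, within 5 kb of the 5' ends of Duox2, Oit1, Duoxa1 and Nos2 in each of the 4 libraries, with positive distance running into the gene. The vertical axes differ between panels. The signal lies on both sides of the Duox2 5' end and mostly downstream of the Oit1 5' end, while Duoxa1 and Nos2 show low profiles without an order of the groups.

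The promoters nearest to the Duox locus and to Oit1 had smaller differences than Duox2, Duoxa2 and Oit1, whereas beside Nox1 and Nos2 some neighbours had larger differences than the member. Sord, next to Duox2 and encoding sorbitol dehydrogenase, had 5.58 and 3.76 in WT and 13.6 and 4.58 in APC, a log2 difference of 0.69. Shf, beyond Duox1, had a difference of 0.57. Beside Oit1, Fam107a differed by -0.26 and 4930452B06Rik by 0.04. Around Nox1, Arl13a differed by -0.05 and Trmt2b by 0.69. Beside Nos2, Lyrm9 differed by 0.30 and Lgals9, a galectin gene, by 1.41, with 7.36 and 3.30 in WT and 31.0 and 6.93 in APC. Except at Lgals9 these differences were below the median of 0.85 over all tested promoters.

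Apart from Duoxa2 (0.276), whose window overlaps, the promoters whose pattern over the 4 libraries was most like that of Duox2 were Car4, a carbonic anhydrase gene, with a distance of 0.492, Fam83e (0.701), St3gal4 (0.706), the interferon-inducible GTPase gene Irgm1 (0.721) and Adamts15 (0.758). The distance is Euclidean, on centred log2 values over 4 libraries, and its median over all tested promoters was 2.01. For Oit1 they were Sh3rf2 (0.581), the nucleic acid sensor gene Zbp1 (0.656), the proto-oncogene Myc (0.765), Adamts15 (0.786) and Ccdc77 (0.806), against a median of 2.11. Duox2 and Oit1 were 1.32 apart, where Oit1 was number 64 in likeness to Duox2 and Duox2 number 159 in likeness to Oit1. They differed mainly in WT, where Duox2 was higher in replicate 1 and Oit1 in replicate 2; from so few fragments the counting intervals of the WT libraries overlapped at both genes.

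Among genes of related pathways no promoter passed limma at an adjusted p of 0.05, in any list. Of 13 relatives of the NADPH oxidases and nitric oxide synthases, 5 were tested. Both APC libraries were above both WT libraries at 2 of them, against 38.5% of all tested promoters. These were Cyba and Rac2, which encode an oxidase subunit and a GTPase that activates the phagocyte oxidase. Cyba had 3.86 and 2.30 in WT and 5.83 and 4.28 in APC, and the median log2 difference of the list was 0.69. After centring the list's median was -0.16, with Cyba at -0.27 and Rac2 at -0.16. In both APC libraries 1 gene of the list was then higher, Rac1 at 0.24, and 1 was lower, Noxo1 at -0.23. The shares over all tested promoters were 13.1% and 14.3%. Cybb, the phagocyte oxidase gene, was not tested. It was at 0 in both WT libraries and at 0.270 and 0.0924 in APC. The level away from genes and enriched regions in these APC libraries was 0.198 and 0.299, so no order of the groups is read from Cybb.

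Of 20 enzymes that use or remove peroxide, 10 were tested, 2 had both APC libraries above both WT libraries, against 38.5% of all tested promoters, and the median log2 difference was 0.89. These were Gpx2, the glutathione peroxidase of gut epithelium, and Gpx1. Gpx2 had 4.49 and 1.76 in WT and 26.4 and 4.97 in APC, a difference of 1.72 or 0.86 after centring, and Gpx1 had a difference of 1.28. After centring the list's median was 0.03.

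Of 31 genes of cytokine and microbe signalling, 26 were tested. Both APC libraries were above both WT libraries at 8 of them, against 38.5% of all tested promoters, and the largest differences among these were 1.36 at Nfkb1, 1.21 at Nfkbia and 1.21 at Jak2. The list's median was 0.85, as was that of all tested promoters to 2 decimals. After centring, 1 gene was higher and 4 were lower in both APC libraries, against 13.1% and 14.3% of all tested promoters.

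Of 17 genes of the epithelial response to bacteria, only Pigr, which encodes the receptor that carries immunoglobulin A across the epithelium, was tested. It had 4.54 and 3.04 in WT and 28.4 and 6.40 in APC, a log2 difference of 1.64, or 0.79 after centring. The other 16, among them Reg3b, Reg3g, Lcn2 and Saa1, had a mean signal below 2, and of these Lcn2 reached 3.60 in WT replicate 1. Of the FAM3 genes related to Oit1, 2 of 3 were tested. Neither had both APC libraries above both WT libraries, against 38.5% of all tested promoters, and their median difference was 0.95. Fam3b, below the minimum signal, had 0.697 and 0.742 in WT and 1.75 and 2.51 in APC. Both APC libraries were thus higher there, as at 26% of all 21938 promoters.

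Markers were used to check the labelled cells. Of 12 enterocyte promoters 11 were tested, with summed levels of 66.9 and 42.8 in WT and 207 and 55.5 in APC, and 3 of the 11 had both APC libraries above both WT libraries, against 38.5% of all tested promoters. Goblet cell, immune, mesenchyme and colon markers had no tested promoter, of 6, 10, 6 and 4 measured. Their summed levels were 9.42, 4.62, 13.7 and 6.94 for goblet cells, 7.61, 6.37, 10.2 and 6.88 for immune cells, 3.14, 3.58, 5.94 and 4.96 for mesenchyme and 3.68, 3.21, 2.52 and 4.58 for colon, in WT replicates 1 and 2 and APC replicates 1 and 2. Ptprc, the pan-leukocyte gene, was at 0 in WT replicate 1 and at most 1.60 elsewhere.

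Crypt and Paneth cell markers summed to 4.21 and 3.42 in WT and 8.54 and 7.05 in APC. Of the 6, 1 was tested, and it was higher in both APC libraries, as were 38.5% of all tested promoters. Below the minimum signal, Ascl2, Defa24, Lgr5 and Lyz1 were also higher in both APC libraries, and Olfm4 was not. Of all 21938 promoters, 26% were higher in both. Of 4 tested proximal small intestine markers, 1 was higher in both APC libraries, against 38.5% of all tested promoters. After centring 3 were lower in both, against 14.3%, and the list's median was -0.40. Of 4 tested distal markers, 1 was higher as deposited, against the same 38.5%. After centring 1 was higher and 1 lower, against 13.1% and 14.3%, with a median of 0.06. The part of crypt cells or of position along the intestine in the values at Duox2, Duoxa2 and Oit1 was not tested. In such bulk libraries, more cells with the mark and more mark per cell cannot be told apart.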

How the data were processed

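CUT&RUN for H3K4me3 was carried out by the authors on nuclei of scraped villus cells. Per the labels and the study's methods, reads were aligned with Bowtie2 to mm10, duplicates were removed with Picard, and HOMER made the tracks from fragments of 150 to 500 bp. The deposited values are a coverage signal scaled by the authors to 10000000 tags, not counts. Fragments behind a value were recovered from the track total and the tag number in each file header; an isolated fragment has the summed signal of 1 tag, and a height of 2 track steps, since both of its ends are extended.

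Mean signal was computed within 1000 bp of each GENCODE M21 gene 5' end, and in 100 bp bins. Enriched regions were runs of bins above 5 times the mean, joined over gaps of up to 500 bp and at least 300 bp long. Promoters that passed a minimum mean signal of 2 were tested on log2(signal + 1) by limma 3.58.1 in R 4.3.3 with a trend. The test was two-sided, with Benjamini-Hochberg adjustment. It was tried on simulated libraries that differed in depth but not in enrichment. That trial therefore does not cover the higher enrichment of APC replicate 1. The other tools were Python 3.11.15, numpy 2.4.6, pandas 2.3.3, scipy 1.17.1 and pysam 0.24.0.

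Named genes are the members, the nearest promoters beside each locus, the 5 most like Duox2 and Oit1, and up to 3 genes a pathway list with the largest differences among those whose groups did not overlap. Other names were added after their values were seen. The members and lists were chosen with earlier results of these data known. The study's methods count 2 mice of each genotype at the younger age for CUT&RUN, without tying a library to a mouse. The labels number 2 samples a group without saying whether each is 1 mouse, so spread may be technical.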

Additional observations from a re-analysis of the deposited data

How the results depend on the processing

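Duox2, Duoxa2 and Oit1 kept a positive difference in all 13 alternatives tried for each (pseudocounts, windows, 5' ends, scalings and single libraries left out), over 1.40 to 3.87 on the log2 scale for Duox2, 1.10 to 3.84 for Duoxa2 and 1.38 to 3.74 for Oit1. Centred and without APC replicate 1, an alternative chosen after seeing the data, they were 1.40, 1.10 and 1.51. The signs of the other 4 genes varied among settings. The number of members whose groups did not overlap was counted only under other scalings, minimum signals, windows and 5' ends. It was 3 in these but for the 500 bp window, where it was 4 with Duox1. It was not counted with single libraries left out, where it can differ. Without APC replicate 1, Nos2 stood at 2.07 against 1.05 and 0.824 in WT. Duox1 held only 1 to 4 fragments a library even in the 1000 bp window. The share over all promoters is given above only as deposited and after centring. As the members were chosen on this contrast, nothing is read from these counts.

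The number of promoters that passed limma was 0 as reported, 12 with libraries centred on the median promoter (5 higher, 7 lower) and 2 under quantile normalization. It ranged from 0 to 6479 with single libraries left out, the upper value without APC replicate 2, which leaves APC replicate 1 alone and assumes that it varies like the WT libraries; the cause of the centring difference was not tested. With the replicate number as a block it was 1 (Gm10800, named after its value was seen). The numbers do not pair the samples, since only 2 pairs exist and the labels name no shared batch; the deviations of replicates 1 correlated at 0.196. With 200 bp bins the highest bin of the Duox locus moved to 21.4 kb in WT replicate 1, from -7.30 kb, and to 3.25 kb in WT replicate 2, from 50.4 kb. Depth limits WT replicate 1 most: a lone fragment stands at 4.47 there.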
